A study of Mus musculus with 6 samples.

Results

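The platelet-derived growth factor (PDGF) family of the mouse consists of the ligand genes Pdgfa, Pdgfb, Pdgfc and Pdgfd and the receptor genes Pdgfra and Pdgfrb. Its 6 members were taken as the probe sets annotated with exactly 1 gene symbol that equals a member's name, and each member had 1 such probe set, so that 6 of 22180 genes tested are described here. Expression was measured on 6 arrays of E12.5 lung buds, an age of active airway branching. The mutant group was 3 arrays of lungs of genotype Fzd2Flox/Flox; Shh cre/+, in which Cre recombinase made from 1 Shh allele acts on 2 floxed copies of Fzd2, a Frizzled receptor gene for Wnt ligands. The control group was 3 arrays of lungs of genotype Shh cre/+, which carry the same Cre allele, so both groups have Cre at Shh. Their label names no Fzd2 allele. Shh is expressed in the lung epithelium, and the study asked which genes depend on Fzd2 there. Whole lung buds were measured, epithelium and mesenchyme together, from 100 ng of total RNA per array. Arrays of a group are biological replicates per the labels. The sources used here give no strain or sex and do not say whether lungs were pooled.

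PDGF ligands are secreted dimers that bring receptor chains together at the cell surface and so switch on their tyrosine kinases. PDGF-A and PDGF-C act mainly through the alpha receptor, while PDGF-B also acts through the beta receptor, and PDGF-D acts mainly through the beta receptor. In the developing lung, PDGF-A comes from the epithelium and its receptor is made by the surrounding mesenchyme, where this signal is known for its role in the cells that later make elastin. PDGF-B comes largely from endothelium, and its beta receptor recruits pericytes to vessels.

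The promoters of the epithelial ligand and its mesenchymal receptor, and of Pdgfc, the ligand whose groups did not overlap, are shown as the stretches of DNA from which these RNAs start. Each is the 250 bases before the gene's start farthest upstream, read 5′ to 3′ on the gene's strand, from RefSeq on build GRCm38.p6. Capitals mark matches to the motifs searched.
Pdgfa, chr5:138994945-138995194, minus strand: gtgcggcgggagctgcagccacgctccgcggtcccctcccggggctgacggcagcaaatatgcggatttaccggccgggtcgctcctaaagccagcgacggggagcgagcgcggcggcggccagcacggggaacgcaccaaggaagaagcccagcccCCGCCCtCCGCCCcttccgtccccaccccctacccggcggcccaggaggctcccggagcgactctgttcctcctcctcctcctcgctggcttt
Pdgfc, chr3:81036166-81036415, plus strand: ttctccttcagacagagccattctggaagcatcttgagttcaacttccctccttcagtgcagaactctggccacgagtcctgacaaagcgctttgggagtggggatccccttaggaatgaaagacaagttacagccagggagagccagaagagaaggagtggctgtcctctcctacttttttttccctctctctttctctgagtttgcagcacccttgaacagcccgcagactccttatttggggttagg
Pdgfra, chr5:75152001-75152250, plus strand: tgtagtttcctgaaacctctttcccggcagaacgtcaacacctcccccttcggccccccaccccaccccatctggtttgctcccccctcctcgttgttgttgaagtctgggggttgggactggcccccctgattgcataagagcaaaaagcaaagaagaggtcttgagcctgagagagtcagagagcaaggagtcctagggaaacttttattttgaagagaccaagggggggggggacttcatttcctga
The Pdgfa stretch is rich in G and C (72.4%, against 50.8% for Pdgfc and 54.4% for Pdgfra, with a median of 52.4% over all promoters). It holds 2 GC boxes, the site of the factor Sp1 (letters GGGCGG), both read from the other strand. A GC box stood in 32.7% of 32851 promoter stretches of the same length. Both strands were also searched for the sites of TCF/LEF, the DNA-binding partners of beta-catenin in Wnt signalling (letters CTTTGAT with its variant CTTTGAA, its variant CTTTGTA, and its variant CTTTGTT, present in 14.8% of promoters), for the CCAAT box (CCAAT, 33.8%) and for the TATA box (TATAAA, 12.4%). None of the 3 stretches holds any of these letters. Pdgfd, which was searched in the same way but is not printed, held 1 TATA box. No matches overlapped.

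Some facts of the whole series bear on every value. Array medians lay between 7.29 and 7.32 on the log2 scale, and limma called 14 of 22180 genes (0.0631%) at an adjusted p under 0.05. An unadjusted p under 0.05 was found for 7.34% of genes with a higher and 5.15% with a lower mean in mutants. The groups did not overlap in 19.4% of all genes, 10.6% higher and 8.83% lower in mutants. Fzd2 itself had log2 values of 9.67, 9.07 and 9.54 in mutant lungs, against 9.57, 9.82 and 9.75 in control lungs, a log2 difference of -0.29 (SE 0.15, limma adjusted p = 0.475), and mutant replicate 1 was inside the range of the controls. Where the Fzd2 probes lie relative to the floxed part was not checked here. The lung factor Nkx2-1 was measured at 10.05 to 10.09 in mutant lungs and 10.41 to 10.57 in control lungs, and the lung mesenchyme factor Foxf1 at 12.03 to 12.19 in mutant lungs and 12.12 to 12.20 in control lungs, so markers of both compartments were present on every array. On 2 arrays, genes of other tissues stood out. The mean of 14 small intestine genes was 9.24 in control replicate 1 and 6.22 to 6.43 on the other arrays, and the mean of 11 adipose genes was 9.16 in mutant replicate 2 and 6.97 to 7.37 on the other arrays. Values without these arrays are given beside each member.

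No PDGF ligand or receptor changed at an adjusted p under 0.05 (0 of 6 by limma). An unadjusted p under 0.05 was found for 2 of 6, where 7.34% of all genes had one with a higher and 5.15% with a lower mean. The difference with the smallest p was that of the alpha receptor gene Pdgfra, at 114% of the control level in mutant lungs, and the next was that of the ligand gene Pdgfc, at 91.6%. In these 2 members (33.3%) the groups did not overlap, against 19.4% of all genes. The means of 3 members were higher and those of 3 were lower in mutants. Their median log2 difference was 0.01, the same to 2 decimals as over all genes. In whole lungs, fewer cells of a type and less RNA per cell cannot be told apart.

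**Figure D1:**
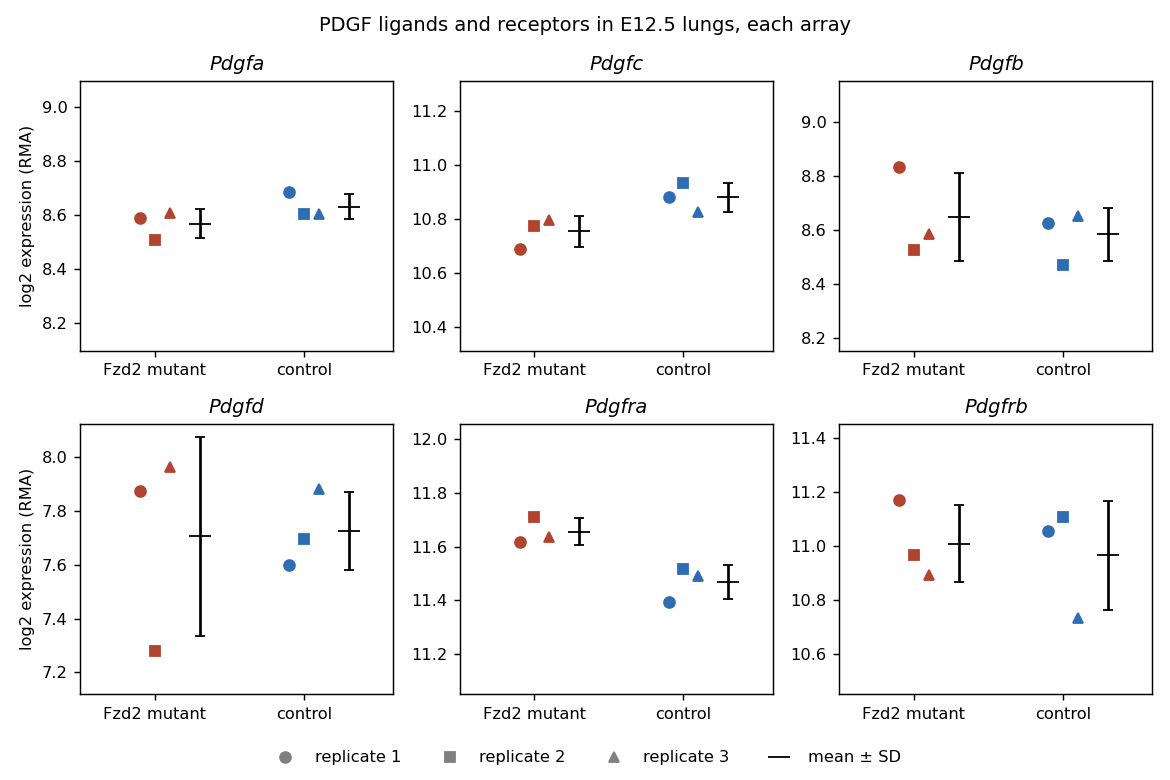
Log2 expression (RMA, vertical axis, a window of 1 log2 unit in every panel) of the 6 PDGF genes on each array, with mutant arrays in red on the left and control arrays in blue on the right. Symbols mark the replicate number and black bars the mean and SD of 3 arrays. Mutant and control arrays separate for Pdgfra, from 11.62 upwards in mutants against at most 11.52 in controls, and for Pdgfc, at most 10.80 in mutants against 10.83 upwards in controls.

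Among the ligands, Pdgfa, the epithelial ligand of the alpha receptor, had log2 values of 8.59, 8.51 and 8.61 in mutant lungs, against 8.68, 8.60 and 8.60 in control lungs. Mutant replicate 2 was the lowest array and control replicate 1 the highest, and the groups overlapped. The means were 8.57 ± 0.05 in mutant lungs and 8.63 ± 0.05 in control lungs (SD, n = 3 each). The log2 difference was -0.06 (SE 0.05, 95% interval -0.18 to 0.06, limma adjusted p = 0.640), so the interval runs from 88.1% to 104% of the control level. Leaving out 1 array at a time kept the sign, with values from -0.08 to -0.03, and with control replicate 1 and mutant replicate 2 both left out the log2 difference was -0.0061.

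Pdgfc, a ligand that needs cleavage of an extra domain before it binds the alpha receptor, had log2 values of 10.69, 10.78 and 10.80 in mutant lungs, against 10.88, 10.93 and 10.83 in control lungs. All mutant arrays lay below all control arrays, by a gap of 0.03 log2 units. The means were 10.75 ± 0.06 in mutant lungs and 10.88 ± 0.05 in control lungs (SD, n = 3 each). The log2 difference of -0.13 (SE 0.05, 95% interval -0.25 to -0.0004) did not pass the test across all genes (limma adjusted p = 0.399, unadjusted p = 0.0494). The log2 difference ranged from -0.15 to -0.09 with 1 array left out and was -0.14 without control replicate 1 and mutant replicate 2. Over the alternatives, its unadjusted limma p ran from 0.025 (trended and robust variance) to 0.154 (without mutant replicate 1).

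Pdgfb, the ligand best known for recruiting pericytes, had log2 values of 8.83, 8.52 and 8.58 in mutant lungs, against 8.62, 8.47 and 8.65 in control lungs. The groups overlapped, with mutant replicate 1 above the other arrays. The log2 difference was 0.06 (SE 0.09, 95% interval -0.15 to 0.28, limma adjusted p = 0.791), and without mutant replicate 1 it was -0.03. Without control replicate 1 and mutant replicate 2 it was 0.15. Pdgfb is also a product of megakaryocytes and platelets. Of 8 measured megakaryocyte genes, 4 had higher and 4 lower means in mutants, 0 were called (0 at an unadjusted p under 0.05), and their mean level ran from 7.74 to 7.88 in mutant lungs and from 7.69 to 7.91 in control lungs.

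Pdgfd, the ligand of the beta receptor that is also activated by cleavage, had log2 values of 7.87, 7.28 and 7.96 in mutant lungs, against 7.60, 7.69 and 7.88 in control lungs. It was the member with the widest spread, with an SD of 0.37 in mutant lungs and 0.14 in control lungs, and mutant replicate 2, the array with raised adipose genes, was the lowest. The log2 difference was -0.02 (SE 0.17, 95% interval -0.42 to 0.38, limma adjusted p = 0.973). It turned to 0.19 without mutant replicate 2, to 0.06 without control replicate 3, and to 0.13 without mutant replicate 2 and control replicate 1. Levels from 74.7% to 130% of the control lie within the interval for Pdgfd.

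Among the receptors, Pdgfra had log2 values of 11.62, 11.71 and 11.64 in mutant lungs, against 11.40, 11.52 and 11.49 in control lungs. All mutant arrays lay above all control arrays, by a gap of 0.10 log2 units, and mutant replicate 2 was the highest. The means were 11.66 ± 0.05 in mutant lungs and 11.47 ± 0.06 in control lungs (SD, n = 3 each). The log2 difference was 0.19 (SE 0.05, 95% interval 0.06 to 0.31), a 1.14-fold higher mean. It did not pass the test across all genes (limma adjusted p = 0.284, unadjusted p = 0.0099). Its value was 0.15 to 0.21 with 1 array left out. Without mutant replicate 2 and control replicate 1, the arrays with the highest and the lowest value, it was 0.12 (SE 0.06, limma adjusted p = 0.469).

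Pdgfrb, the receptor gene of pericytes and other mural cells, had log2 values of 11.17, 10.96 and 10.89 in mutant lungs, against 11.05, 11.11 and 10.73 in control lungs. The groups overlapped, with control replicate 3 the lowest and mutant replicate 1 the highest. The log2 difference was 0.04 (SE 0.11, 95% interval -0.22 to 0.30, limma adjusted p = 0.895). It turned to -0.07 without control replicate 3 and to -0.04 without mutant replicate 1, and it was 0.11 without control replicate 1 and mutant replicate 2. Of 11 pericyte genes, 9 had higher means in mutants, against 54.8% of all genes, 0 were called and the median log2 difference was 0.12. The unadjusted limma p was under 0.05 for 3, against 7.34% higher and 5.15% lower over all genes. The 2 pericyte genes with the smallest p were Kcnj8, a potassium channel subunit (0.34, SE 0.11), and Ndufa4l2 (0.23, SE 0.08). Ndufa4l2 was dim, with a mean level at percentile 23.15 of all genes. Anpep, also an enzyme of the intestinal brush border, stood at 10.75 in control replicate 1 and at most 8.22 on the other arrays.

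**Figure D2:**
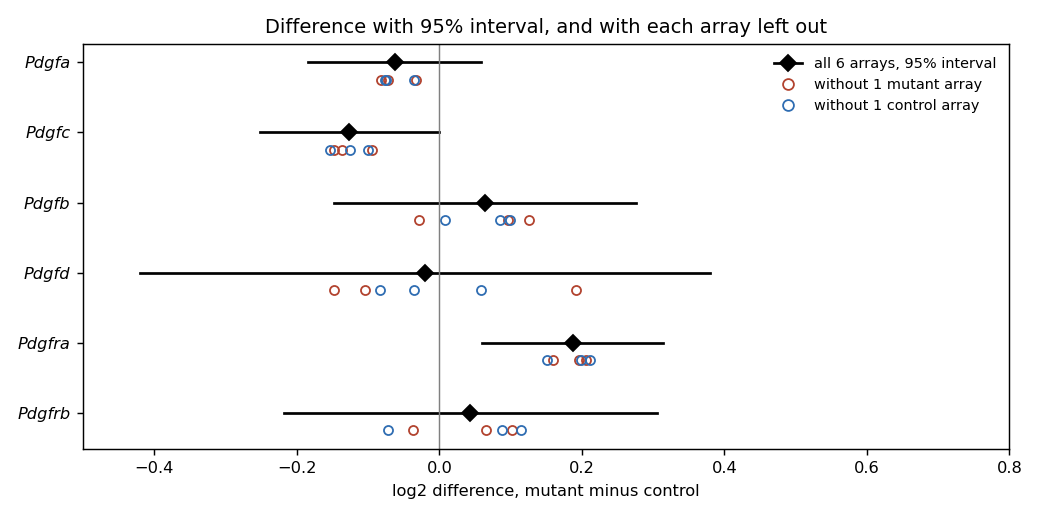
Log2 difference between mutant and control lungs for each PDGF gene (horizontal axis). Diamonds and lines give the value and 95% interval from limma over all 6 arrays, and open circles below them give the value with 1 mutant (red) or 1 control (blue) array left out. The circles of Pdgfra lie between 0.15 and 0.21 and those of Pdgfc between -0.15 and -0.09, while those of Pdgfb, Pdgfd and Pdgfrb fall on both sides of 0.

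Pdgfa was then set beside the markers of the tissue that makes it. Of 23 measured pan-epithelial genes, 22 had lower means in mutant lungs. The groups of 15 (65.2%) did not overlap, all lower, against 8.83% lower over all genes. The list median was -0.24 (-0.16 without control replicate 1 and mutant replicate 2). Only Esrp1, a splicing regulator of epithelia, was called (-0.48, SE 0.05, limma adjusted p = 0.0334), a call lost with any 1 array left out and with the replicate number as a block, where limma called 0 genes. In mutant replicates 1, 2 and 3 the list mean stood at log2 deviations of -0.20, -0.33 and -0.19 from its control mean, where Pdgfa deviated by -0.04, -0.12 and -0.02. Within arrays, Pdgfa minus the list mean was 0.15, 0.21 and 0.17 log2 units above its control mean in mutant replicates 1, 2 and 3, against 0.01, -0.03 and 0.02 in control replicates 1, 2 and 3. The groups did not overlap in this measure. As the list mean was lower on every mutant array, a gene without any difference would also lie above its control mean here. How many of all genes separate in this measure was not computed. The difference was 0.18 log2 units (SDs 0.03 in mutant lungs and 0.03 in control lungs), with a two-sided exact permutation p = 0.1, the smallest that 3 arrays against 3 can give. It kept its sign in each of 6 fits with 1 array left out (0.16 to 0.19) and was 0.17 without control replicate 1 and mutant replicate 2. The part of the epithelial markers in the Pdgfa value was not tested further.

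Pdgfra was set beside mesenchyme markers in the same way. Of 17 measured mesenchyme genes, 10 had higher and 7 lower means in mutants, and the median log2 difference was 0.10. The groups did not overlap in 6 (35.3%), all higher, against 10.6% higher over all genes. Dcn, which encodes a matrix proteoglycan, was the only one called (0.54, SE 0.05, limma adjusted p = 0.0238), and its call was lost under the same alternatives. Lum, a related proteoglycan gene, had the next smallest p (0.61, SE 0.11). These 2 genes and Prrx1 (0.50, SE 0.10) had the largest differences of the list, and the next largest was that of Twist1 (0.24, SE 0.10). The 7 with lower means were Tbx4, Tbx5, Foxf1, Tcf21, Meox2, Hoxa5 and Wnt2, with log2 differences from -0.10 (Tcf21) to -0.0036 (Wnt2). In mutant replicates 1, 2 and 3 the list mean stood at log2 deviations of 0.16, 0.12 and 0.14, where Pdgfra deviated by 0.15, 0.24 and 0.17. Pdgfra minus the list mean differed by 0.05 log2 units between mutant and control arrays, less than the SDs of 0.07 in mutant lungs and 0.06 in control lungs (two-sided exact permutation p = 0.5). Against the median of the list in place of its mean, the difference was 0.12 log2 units (exact permutation p = 0.2). With the mean, it was 0.01 without mutant replicate 2, 0.08 without mutant replicate 1, and -0.02 when control replicate 1 and mutant replicate 2 were both left out. The part of the mesenchyme markers in the Pdgfra value was not tested further.

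**Figure D3:**
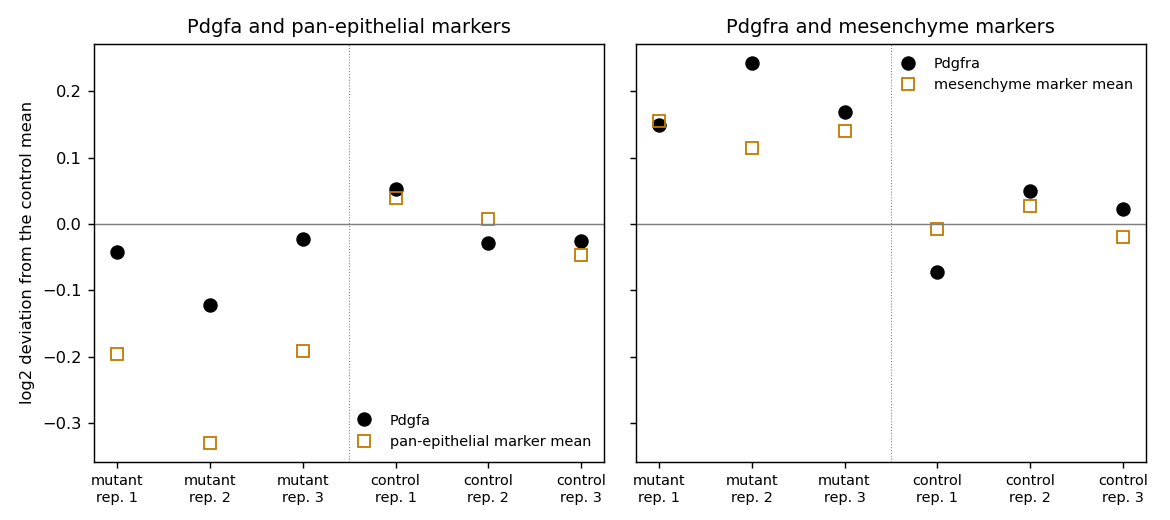
Log2 deviation from the control mean (vertical axis) on each array, mutants left and controls right of the dotted line. Filled circles are Pdgfa (left panel) and Pdgfra (right panel), and open squares are the means of 23 pan-epithelial and 17 mesenchyme markers. In mutants the epithelial squares lie between -0.33 and -0.19 and Pdgfa between -0.12 and -0.02, while the mesenchyme squares lie between 0.12 and 0.16 and Pdgfra between 0.15 and 0.24.

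Markers of other cells that can make PDGF receptors or ligands were read for the same arrays. Over all genes, 10027 of 22180 had lower means. An unadjusted limma p under 0.05 was found for 7.34% of genes with a higher and 5.15% with a lower mean. Of 11 smooth muscle genes 9 had lower means in mutants (median log2 difference -0.11, 0 called, 4 at an unadjusted p under 0.05), led by Actg2, an actin of smooth muscle (-0.38, SE 0.08) and the coactivator gene Myocd (-0.42, SE 0.10). Of 14 endothelial genes 9 had lower means (median -0.02, 0 called, 1 at an unadjusted p under 0.05). Higher means were found for 8 of 10 mesothelial genes (median 0.14), 9 of 13 leukocyte genes (median 0.16) and 8 of 9 neural crest and neuron genes (median 0.15), against 54.8% of all genes. In each list 0 were called, with 2, 4 and 4 at an unadjusted p under 0.05. Erbb3, 1 of these 4 neural crest and neuron genes and the one with the smallest p, was lower in mutants (-0.36, SE 0.07). Mean levels were 8.64 to 8.83 in mutant lungs and 8.49 to 8.68 in control lungs for the mesothelial list, and 8.07 to 8.21 in mutant lungs and 7.98 to 8.01 in control lungs for the leukocyte list. Whether these shifts bear on the values of the PDGF genes was not tested.

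PDGF ligands are processed outside or on the way out of the cell, and 9 genes of this step and of coreceptors were measured. None was called (0 of 9 by limma), and the groups did not overlap in 2 (22.2%, near the 19.4% of all genes). An unadjusted p under 0.05 was found for 2 of 9, against 7.34% higher and 5.15% lower over all genes. The median log2 difference was 0.03 (0.02 without mutant replicate 1, 0.05 without mutant replicate 2, and 0.07 after a further quantile normalization). The proprotein convertase gene Pcsk7 had 8.55, 8.56 and 8.47 in mutant lungs, against 8.63, 8.67 and 8.74 in control lungs (log2 difference -0.15, SE 0.05, adjusted p = 0.330). St14, which encodes matriptase, an epithelial protease able to activate PDGF-D, had 9.04, 8.73 and 8.87 in mutant lungs, against 9.03, 9.19 and 9.05 in control lungs (-0.21, SE 0.09, adjusted p = 0.393). Only mutant replicate 1 of St14 reached the control range. Next by p were the endocytic receptor gene Lrp1 (0.13, SE 0.06) and the convertase gene Furin (0.10, SE 0.06).

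Downstream of the receptors, 24 genes of adaptors, enzymes and other signalling proteins were measured and 0 were called by limma. For 2 of them the unadjusted p was under 0.05, against 7.34% higher and 5.15% lower over all genes. Means were higher for 10 and lower for 14, the groups did not overlap in 4 (16.7%, near the 19.4% of all genes), and the median log2 difference was -0.01, which turned to 0.02 after a further quantile normalization. The adaptor gene Shc1 had 10.53, 10.55 and 10.52 in mutant lungs, against 10.40, 10.41 and 10.35 in control lungs (log2 difference 0.15, SE 0.05, adjusted p = 0.297). Sos1, the exchange factor that loads Ras with GTP, had 9.63, 9.70 and 9.60 in mutant lungs, against 9.77, 9.82 and 9.73 in control lungs (-0.13, SE 0.05, adjusted p = 0.367). In both genes the groups did not overlap. Next by p were Cbl, a ubiquitin ligase that removes active receptors (-0.14, SE 0.07), and the receptor phosphatase gene Ptprj (-0.16, SE 0.08).

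The nearest relatives of the family are the VEGF ligands, which share its cystine-knot fold, and the receptors of VEGF, Kit and Csf1r. The list of relatives also held Flt3, Kitl and Csf1, and its counts and median include them. Of its 13 measured genes, 12 had higher means in mutants, and 0 were called by limma. The unadjusted p was under 0.05 for 2, against 7.34% higher and 5.15% lower over all genes. The median log2 difference was 0.10, against 0.01 over all genes, where 54.8% had higher means. Vegfd, a ligand of lymphatic growth that is also made by lung mesenchyme, had 9.14, 9.02 and 8.99 in mutant lungs, against 8.56, 8.35 and 8.86 in control lungs (log2 difference 0.46, SE 0.12, adjusted p = 0.248). Vegfb had 10.48, 10.44 and 10.34 in mutant lungs, against 10.23, 10.23 and 10.21 in control lungs (0.20, SE 0.05, adjusted p = 0.263). The groups did not overlap in 4 of the 13 genes (30.8%, against 19.4% of all genes). These were Vegfd, Vegfb and Vegfc, higher in mutants, and Pgf, lower in mutants. Csf1r, a macrophage receptor gene (0.25, SE 0.12), and the placental growth factor gene Pgf (-0.10, SE 0.05) were next by p. The median ran from 0.07 without control replicate 1 to 0.14 without mutant replicate 3, and was 0.06 without control replicate 1 and mutant replicate 2. Csf1r also stands in the leukocyte list and Kdr in the endothelial list.

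Of 12 measured genes known from Pdgfra-expressing fibroblasts and myofibroblasts of the lung, 6 had higher and 6 lower means, with 0 called by limma. An unadjusted p under 0.05 was found for 5, where 7.34% of all genes had one with a higher and 5.15% with a lower mean. The median log2 difference was 0.06. It was 0.01 without mutant replicate 1 and 0.11 without mutant replicate 2. Without control replicate 1 and mutant replicate 2 it was 0.10, and after quantile normalization 0.09. The lipid droplet gene Plin2 had 10.06, 10.39 and 10.17 in mutant lungs, against 9.87, 9.86 and 9.97 in control lungs (log2 difference 0.31, SE 0.09, adjusted p = 0.272), with mutant replicate 2, the array with raised adipose genes, the highest. The collagen gene Col3a1 had 11.32, 11.28 and 11.25 in mutant lungs, against 11.15, 11.16 and 11.07 in control lungs (0.16, SE 0.05, adjusted p = 0.314). The muscle actin gene Acta2 had 12.32, 12.34 and 12.27 in mutant lungs, against 12.43, 12.44 and 12.45 in control lungs (-0.13, SE 0.05, adjusted p = 0.337). The groups of these 3 genes did not overlap, nor did those of Fgf18 (0.12, SE 0.06), so that 4 of 12 (33.3%) were separate, against 19.4% of all genes. The collagen gene Col1a1 followed by p (0.21, SE 0.08). Col3a1 and Foxf1, Tcf21 and Wnt2 of this list also stand in the mesenchyme list, and Acta2 and Tagln in the smooth muscle list.

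**Figure D4:**
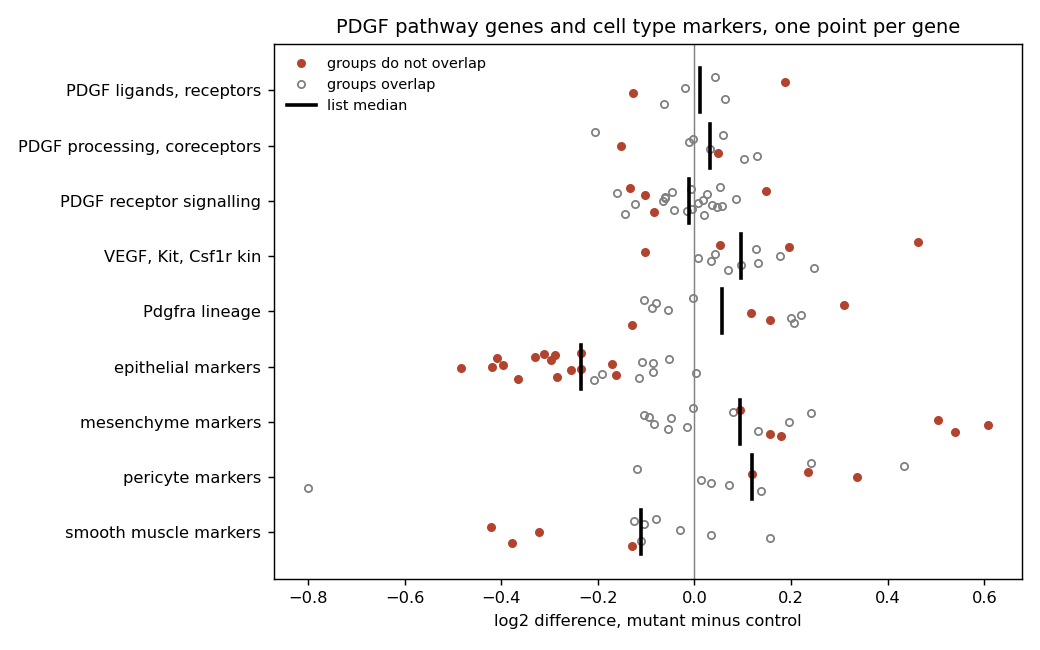
Log2 difference between mutant and control lungs (horizontal axis) for each gene of the PDGF family, of 4 lists of related genes and of 4 lists of cell type markers (rows). Filled red points are genes whose groups do not overlap, open points those whose groups do, and black bars the list medians. The medians of the PDGF rows lie between -0.01 and 0.10, and that of the epithelial markers at -0.24.

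The genes whose pattern over the 6 arrays was most like that of Pdgfa or Pdgfra were found by the root mean square difference between values centred on each gene's mean, among 14310 genes above the 30th percentile of expression, predicted transcripts left out. For Pdgfa they were Faap100, Med9, Cct4, Lgi2 and Nbas, with differences of 0.0085 to 0.02 log2 units, where Pdgfa itself varied by 0.05 about its mean. For Pdgfra they were Cbln1, Flot1, Ctsb, Tbx21 and C1qtnf4, with differences of 0.02 in each to 2 decimals, where Pdgfra varied by 0.10. The log2 differences of these 5 genes between mutant and control lungs lay between 0.17 and 0.20, which follows from their choice by likeness on the same arrays. None of the 5 was called by limma.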

How the data were processed

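Lung buds were measured on 6 arrays, 3 of mutant and 3 of control embryos, and mapped to groups by the titles and genotypes in the labels. The authors deposited 1 table of log2 expression values for 41345 probe sets, and per the submitters' processing notes the tools were RMA and oligo. RMA subtracts background, gives all arrays 1 distribution and summarises probes, so only changes relative to other genes are seen. The log2 scale was read from the values (3.55 to 14.04). The sources used here name no versions, filters or genome build. The platform annotation gave 23521 probe sets 1 symbol, 1814 several and 16010 none. For a gene with several probe sets (1082 genes), that with the highest mean was kept, leaving 22180 genes. All 6 PDGF genes had 1 probe set, a match in the RefSeq gene table and a mean above the 30th percentile.

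Differences between groups came from limma 3.58.1, run in R 4.3.3 (functions lmFit and eBayes, two-sided, Benjamini-Hochberg over all genes, threshold 0.05), with differences as mutant minus control. The procedure was tested on simulated data, in which the added changes were larger than the difference of any PDGF gene. No list was tested as a set: lists are described by counts and medians. Lists name for each the 4 genes with the smallest p, and marker lists up to 2. Named besides were genes used to check the tissue and single arrays, and some that show how a list divided. The PDGF genes, lists and rules were chosen with earlier results of these data known. Some listed genes are not analysed here, and counts are over the measured ones. Alternatives were another normalization, a filter on dim genes, averaged probe sets, another variance model, arrays left out, weights on arrays and a replicate block. Deviations of arrays with the same replicate number from their group means correlated at -0.045, -0.061 and 0.074 across genes, so the numbers were not taken to pair the arrays. The number of arrays limits the precision. Figures were drawn with matplotlib 3.10.9.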

Additional observations from a re-analysis of the deposited data

How the results depend on the processing

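Each member was recomputed under 13 alternatives, and 0 of 6 members was called by limma under any of them. Pdgfa, Pdgfc and Pdgfra kept their direction in all 13, with adjusted p from 0.582 to 0.975 for Pdgfa, 0.324 to 0.702 for Pdgfc and 0.158 to 0.499 for Pdgfra. With 1 array left out, log2 differences ran from -0.0823 to -0.0329 (Pdgfa), -0.0292 to 0.126 (Pdgfb), -0.154 to -0.0942 (Pdgfc), -0.148 to 0.192 (Pdgfd), 0.151 to 0.212 (Pdgfra) and -0.0723 to 0.114 (Pdgfrb). Signs turned for Pdgfb without mutant replicate 1, for Pdgfd without mutant replicate 2 or control replicate 3 and for Pdgfrb without mutant replicate 1 (-0.037) or control replicate 3. Pdgfd also turned with array weights (0.0186) and with control replicate 1 and mutant replicate 2 both left out (0.129), where Pdgfra relative to the mesenchyme mean turned to -0.0214. Over all genes, limma's 14 calls became 8 after a further quantile normalization, 25 above the 30th percentile, 46 with a trended and robust variance, and 0 with the replicate block, with any 1 array left out or with those 2 arrays out. The replicate block changed no call of a PDGF gene. The median of the receptor signalling list was 0.0212 after quantile normalization. The median of the list of relatives was 0.119 after quantile normalization, 0.0708 to 0.14 with 1 array left out and 0.0604 without the 2 arrays. The cause of these shifts was not tested. Chosen after seeing the data, the marker medians without those 2 arrays were -0.158 for epithelial and 0.106 for mesenchyme genes. With 3 arrays per group the 95% intervals were 0.24 to 0.80 log2 units wide.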
